A study of Mus musculus with 2 samples.

Results

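The genes described here encode heat shock proteins and DnaJ co-chaperones, chosen by gene symbol alone: every symbol that begins with Hsp followed by a, b, d, e, h or a digit, or with Dnaj. The rule matched 74 of the 24346 gene symbols in the tables and uses no measured value. However, the members and the gene lists used below were chosen with earlier results of these data known. RNA was sequenced in Gr-1+ CD11b+ cells, a surface phenotype shared by neutrophils and monocytes, which were sorted from BALB/c mice given 3% dextran sulfate sodium (DSS), a polymer that injures the colon, for 6 days. The control library (n = 1) came from cells labelled as stimulated without ATPγS, and the other library (n = 1) from cells exposed to ATPγS, a slowly hydrolysed ATP analogue, at 100 µM (the micro sign is a symbol-font character in the label) for 2.5 hours. Both libraries share the strain and the DSS treatment, there is no library from mice without DSS, and neither the organ nor the number of mice behind a library is given in the sources used here. With 1 library per condition there is no replicate error and no p-value, and every difference below compares these libraries.

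Heat shock proteins are molecular chaperones, named by approximate molecular mass, that hold, fold or disaggregate other proteins. HSP70 binds exposed hydrophobic stretches in an ATP-driven cycle. DnaJ proteins, also called HSP40 or J proteins, deliver clients and trigger ATP hydrolysis through their J domain, and HSP110 proteins are HSP70 relatives that exchange its nucleotide. HSP90 completes the maturation of kinases and receptors, HSP60 with its HSP10 lid folds proteins inside mitochondria, and small HSPs hold unfolding proteins without using ATP. Several families pair a constitutive member with an inducible one, which the transcription factor HSF1 activates through heat shock elements in its promoter. The endoplasmic reticulum (ER) holds its own set, activated by the unfolded protein response.

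The sequences before 3 genes of the inducible list, before Hspe1 of the mitochondrial chaperonin and before an ER chaperone gene are shown for the elements they hold, and bear on results below in which neighbouring genes are read together. RefSeq windows of 250 bases before the gene start (GRCm38.p6) were found for 60 of the 74 genes. Capitals mark 2-unit heat shock elements (GAANNTTC or TTCNNGAA, both of which read the same on either strand) in the first 4 sequences, and an ER stress element (CCAAT, any 9 bases, then CCACG, on either strand) in the last. The Hspa1a sequence is chr17:34972157-34972406 on the minus strand, that of Hspa1b is chr17:34959239-34959488 on the minus strand, and that of Hspb1 is chr5:135887669-135887918 on the plus strand. Only the matched sites are shown for Hspe1 (chr1:55088053-55088082, plus strand) and Hspa5 (chr2:34772020-34772048, plus strand), because annotated exons lie within those windows.
Hspa1a: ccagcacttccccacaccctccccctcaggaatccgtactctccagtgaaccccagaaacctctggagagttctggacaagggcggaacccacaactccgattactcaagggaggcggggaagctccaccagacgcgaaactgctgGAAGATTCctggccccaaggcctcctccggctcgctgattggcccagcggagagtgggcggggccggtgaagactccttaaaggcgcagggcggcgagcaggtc
Hspa1b: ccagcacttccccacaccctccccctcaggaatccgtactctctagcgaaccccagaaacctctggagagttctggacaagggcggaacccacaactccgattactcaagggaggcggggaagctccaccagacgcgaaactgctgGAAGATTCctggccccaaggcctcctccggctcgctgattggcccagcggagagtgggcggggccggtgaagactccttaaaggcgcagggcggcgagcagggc
Hspb1: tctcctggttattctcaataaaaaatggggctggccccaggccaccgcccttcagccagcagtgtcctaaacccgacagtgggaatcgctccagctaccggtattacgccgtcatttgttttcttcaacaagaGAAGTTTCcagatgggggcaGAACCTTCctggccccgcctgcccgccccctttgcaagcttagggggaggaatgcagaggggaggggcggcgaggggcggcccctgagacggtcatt
Hspe1: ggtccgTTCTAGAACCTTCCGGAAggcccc
Hspa5: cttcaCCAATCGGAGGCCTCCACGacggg
The Hspa1a and Hspa1b windows were identical at 247 of 250 bases (98.8%). In the Hspe1 site 3 overlapping 2-unit matches ran together, so that it also held the 3-unit form (GAANNTTC followed by NNGAA, on either strand), which contains the shorter motif. A 2-unit match was present in 12.8% of all 32851 windows and in 16 of the 77 windows of these genes (20.8%). Among genes with a window, 6 of 7 in the inducible list and 0 of 4 in the constitutive list had one. No window was found for Hspa8 and Hsp90ab1 of the constitutive list or for Hsp90aa1 of the inducible list. The 3-unit form was in 0.466% of all windows and in those of Dnajb6, Hspd1 and Hspe1, none of them in the inducible list. The ER stress element was in 0.113% of all windows and in those of Hspa5, Hsp90b1 and Dnajc3. A match is a description of the letters and no evidence of binding.

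Both libraries were shallow, with about 2142000 (control) and 2864000 (ATPγS) fragments, as read from the smallest steps of the values. Of 8 markers of the sorted cells, 7 were measured and none was 2-fold apart, among them Itgam, of CD11b (112 and 144 FPKM in control and ATPγS, here and below in that order), while Ly6g, of a Gr-1 antigen, was not analysed here. Markers of T and NK cells summed to 258.1 and 93.3 FPKM over 8 measured genes, of which 5 were lower with ATPγS by 2-fold or more and 1 was higher. B cell markers summed to 331 and 253 FPKM over 6 genes, and macrophage markers to 228 and 363 FPKM over 5 genes. Erythroid markers summed to 725 and 616 FPKM over 3 genes, nearly all from Hba-a1, and epithelial markers to 77.3 and 59.8 FPKM over 3 genes. In bulk RNA, fewer cells of a type and less RNA per cell cannot be told apart, and the part of these cells in the chaperone values was not tested.

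A few genes held most of the chaperone transcripts in both libraries. FPKM scales fragments to transcript length and library depth, so levels of different genes can be set side by side. All 74 genes together held 0.572% (control) and 0.545% (ATPγS) of the FPKM of all genes. Hspa8 alone made up 28.5% and 28.8% of that chaperone sum, and the 5 most abundant genes (Hspa8, Hspa5, Hsp90ab1, Hsp90aa1 and Dnajb1 in both libraries) made up 62.4% and 65.8%. HSP70 transcripts summed to 2059 and 1972 FPKM and DnaJ transcripts to 833 and 713 FPKM, or 2.47 and 2.77 HSP70 transcripts per DnaJ transcript.

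Of the 74 genes, 64 averaged 1 FPKM or more over both libraries and entered the counts. Dnajb5 was the 1 gene of these listed below 1 FPKM in either library. On the scale log2((ATPγS FPKM + 1) / (control FPKM + 1)), 6 (9.38%) were higher with ATPγS by 2-fold or more, as were 13.8% of all 18311 genes at that level. In the other direction 7 (10.9%) were lower by 2-fold or more, as were 9.91% of all genes. Neither share stands out from its background. The median log2 ratio of the 64 genes was -0.11, against 0.01 for all genes. Of the 26 chaperone genes that averaged 20 FPKM or more, 1 was 2-fold apart in either direction, against 7.30% of all genes so expressed, and their median was -0.26, against -0.12. In this abundant group 18 of 26 (69.2%) lay below 0, as did 60.7% of all genes. The median over all genes averaging 10 FPKM or more was -0.13. When the libraries were rescaled to bring it to 0, the log2 ratios of Hspa8 and Hsp90b1 changed sign. The median of the chaperone genes averaging 1 FPKM or more then became 0.02, against 0.13 for all genes.

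**Figure D1:**
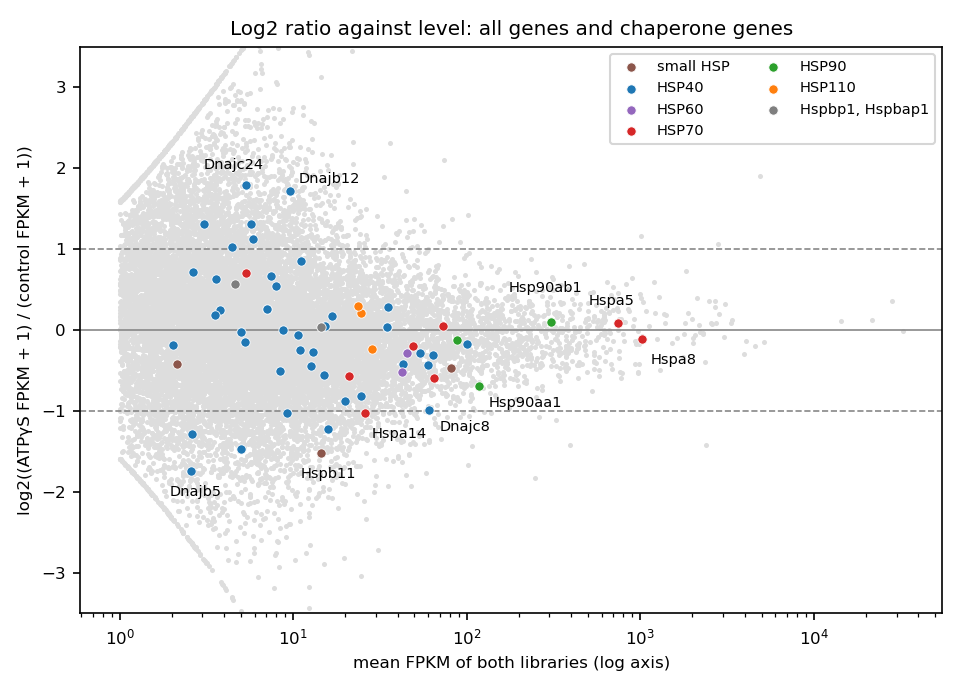
Each point is a gene averaging 1 FPKM or more, placed by its mean FPKM over both libraries (horizontal, log axis) and its log2 ratio of ATPγS to control with a pseudocount of 1 (vertical). Grey points are all genes, coloured points the 64 chaperone genes by family, and dashed lines mark 2-fold. The axis stops at a log2 ratio of 3.5 in either direction, which leaves out 78 genes and 0 chaperone genes. The abundant chaperones lie near 0 and the genes beyond the dashed lines are mostly DnaJ genes at low levels.

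Small HSP genes were led by Hspb1, of HSP25, an inducible chaperone that also binds actin filaments. Hspb1 stood at 95.1 and 68.4 FPKM, 1.39-fold lower (folds of single genes carry no pseudocount), with a 95% counting interval of the ATPγS to control ratio of 0.582 to 0.889. Of its 50-base stretches, 60.4% also occur in transcripts of other genes, so its reads may be split. Hspb11 was the 1 small HSP gene past 2-fold, at 22.05 and 7.07 FPKM (3.12-fold lower, interval 0.144 to 0.625) from about 29 and 12 reads. Despite its symbol, Hspb11 encodes a subunit of the intraflagellar transport machinery of cilia. Hspb8, a partner of the co-chaperone BAG3, stood at 6.32 and 7.78 FPKM and Hspb6 at 2.60 and 1.71 FPKM, and the intervals of both include no difference. The other small HSP genes, best known from muscle, heart or testis, were barely detected. Hspb3, Hspb7 and Hspb9 stayed under 1.3 FPKM in each library, and Hspb2 was listed at 0 in both. The median of the 4 measured small HSP genes was -0.44, and 3 of 4 lay below 0. Of all genes, 9.91% were 2-fold lower and 49.6% lay below 0.

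The mitochondrial chaperonin genes were both listed lower in the ATPγS library. Hspd1, of HSP60, stood at 50.04 and 34.8 FPKM, 1.44-fold lower (interval 0.579 to 0.829). Hspe1, of its HSP10 lid, stood at 49.7 and 40.6 FPKM, 1.22-fold lower, with an interval of 0.602 to 1.12 that includes no difference. The levels per length of the pair were nearly equal in the control. The genes lie head to head on chromosome 1, Hspd1 at 55077835 to 55088243 on the minus strand and Hspe1 at 55088132 to 55091307 on the plus strand (GENCODE M21), and they share 112 exon bases at their starts. The library preparation does not mark strand, so reads within the overlap cannot be assigned to either gene. For each of the genes, 44.8% of 50-base stretches recur in other transcripts.

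HSP70 genes ran from among the most abundant transcripts of the cell to nothing detected. Hspa8, of the constitutive cytosolic HSC70, stood at 1066 and 991 FPKM, rank 58 and 64 of all genes. Hspa5, of the ER chaperone BiP, stood at 725 and 768 FPKM, rank 91 and 92. Neither differed by more than 1.08-fold, although their counting intervals (0.896 to 0.965 and 1.02 to 1.10) are narrow enough to leave 1 out. Reads of Hspa8 may be shared, since 74.8% of its 50-base stretches also occur in transcripts of 13 other genes.

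The inducible HSP70 genes Hspa1a and Hspa1b gave different values in spite of nearly the same sequence. Hspa1a (chromosome 17, 34969190 to 34972156) stood at 71.4 and 73.9 FPKM, and Hspa1b (chromosome 17, 34956436 to 34959238) at 78.4 and 51.8 FPKM. Of the 50-base stretches of Hspa1b, 62.3% are also in Hspa1a, and the way reads were divided between the copies is not given in the sources used here. Their sum, 149.8 and 125.7 FPKM, was 1.19-fold lower in the ATPγS library. Moving reads from one copy to the other changes the sum little. Reads left out, counted at both copies or given to other genes would change it, which was not tested. Hspa1l, a spermatid-expressed member that starts 547 bases from Hspa1a on the opposite strand, was at 0.164 FPKM in the control and listed at 0 with ATPγS. Exons of neighbouring genes on the opposite strand cover 71.9% of the exon bases of Hspa1l and a smaller part of those of Hspa1a.

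Hspa14, of the HSP70 that sits on the ribosome, was the 1 abundant chaperone gene past 2-fold with the pseudocount of 1. It stood at 35.3 and 16.8 FPKM, 2.10-fold lower (interval 0.357 to 0.624). It no longer reached 2-fold once the libraries were rescaled, and an exon of another gene, Gm45902, overlaps 7.91% of its exon bases. Dnajc2, its J protein partner on the ribosome, stood at 14.3 and 11.7 FPKM with an interval (0.584 to 1.18) that includes no difference. Dnajc2 was chosen after its values were seen.

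Hspa9, of the mitochondrial HSP70 mortalin, stood at 52.2 and 45.5 FPKM. Hspa13, of a microsomal HSP70, was 1.51-fold lower at 25.1 and 16.6 FPKM (interval 0.531 to 0.818). Hspa2, best known from testis, was higher at 3.84 and 6.92 FPKM (interval 1.05 to 3.12). Hspa12a and Hspa12b, distant relatives, stayed under 1 FPKM. Of 8 measured HSP70 genes 1 was 2-fold lower (9.91% of all genes were) and 7 lay between, with a median of -0.15.

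Among HSP90 genes, the inducible and constitutive cytosolic paralogs parted. Hsp90aa1, the inducible paralog, stood at 144.9 and 89.5 FPKM, 1.62-fold lower (interval 0.563 to 0.678), and its rank among all genes went from 591 to 877. Hsp90ab1, the constitutive paralog, stood at 294 and 316 FPKM (interval of its ratio 1.01 to 1.15). Hsp90b1, of the ER paralog GRP94, stood at 91.8 and 84.4 FPKM, with an interval that includes no difference. The transcripts of Hsp90aa1 share 58.5% of their 50-base stretches with other genes, mostly Gm12346, against 4.49% for Hsp90ab1, so the level of the first is the less certain.

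HSP110 genes were similar in level and differed little. Hsph1, the inducible member, stood at 22.6 and 26.5 FPKM (interval 0.960 to 1.42) and Hspa4l, a relative also known as OSP94, at 21.2 and 26.2 FPKM (interval 1.10 to 1.40). Hspa4, the constitutive member, stood at 30.6 and 25.997 FPKM (interval 0.725 to 0.994). The median of the 3 was 0.22. Of the matched genes outside these families, Hspbp1, of a nucleotide exchange factor of HSP70, stood at 14.2 and 14.7 FPKM, and Hspbap1, of a protein that binds HSP27, at 3.54 and 5.73 FPKM.

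**Figure D2:**
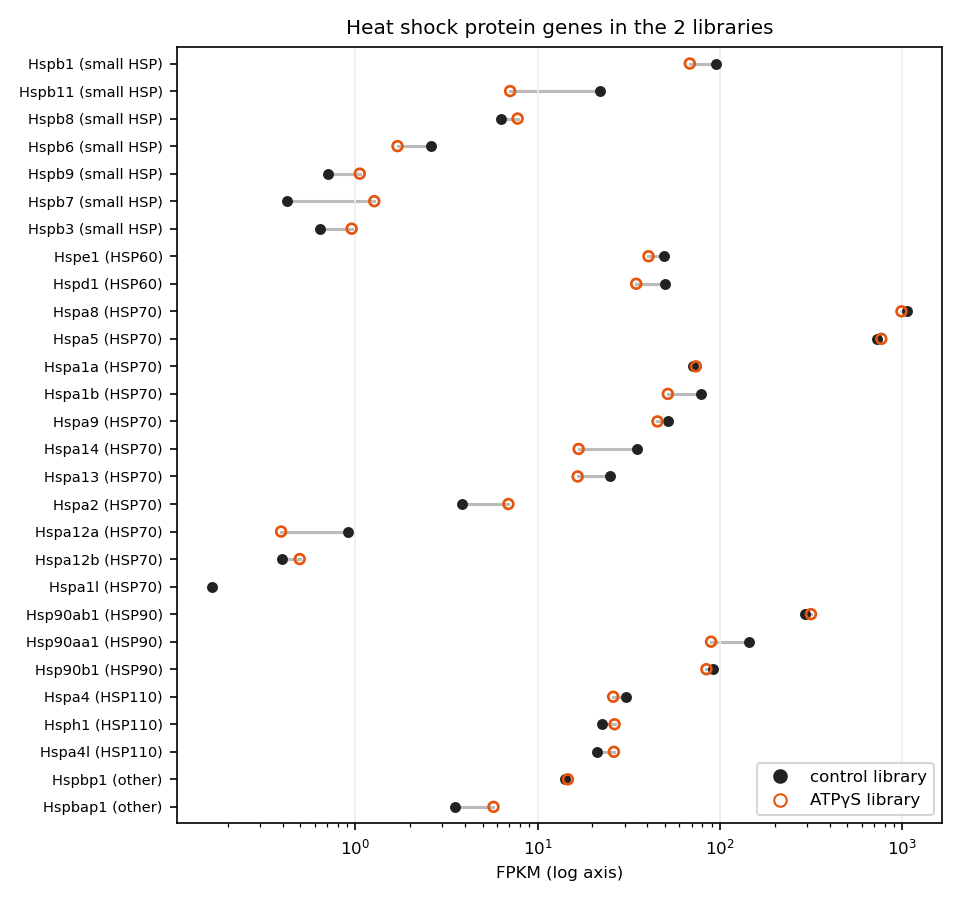
FPKM (log axis) of each heat shock protein gene outside the DnaJ family, with the control library as filled points and the ATPγS library as open circles, grouped by family and ordered by mean level. Hspb2 was listed at 0 in both libraries and is not drawn, and Hspa1l has no open circle because it was listed at 0 with ATPγS. The points of Hspa8, Hspa5, Hspa1a and Hspbp1 nearly coincide, while those of Hspb11, Hspa14 and Hsp90aa1 are apart.

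DnaJ genes were the most numerous family, with 45 symbols, of which 42 averaged 1 FPKM or more. Of these, 6 were 2-fold higher, 5 were 2-fold lower and 31 lay between. Their median was -0.04, or 0.07 after rescaling to a median of 0. The shares of all genes were 13.8% higher and 9.91% lower, so neither DnaJ count stands out. By class, 4 class A, 12 class B and 26 class C genes were measured, with medians of -0.22, 0.08 and -0.03. Class A and most class B proteins resemble bacterial DnaJ, while class C proteins share little beyond the J domain.

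Most abundant DnaJ genes were listed lower with ATPγS: of the 10 that averaged 20 FPKM or more, 7 had a log2 ratio below 0, near the 60.7% of all genes at that level. Dnajb1, the main inducible partner of cytosolic HSP70, stood at 107 and 94.8 FPKM (interval 0.801 to 0.987). Dnajc8, of a J protein associated with the splicing machinery, stood at 81.1 and 40.5 FPKM (interval 0.406 to 0.611). It was 2.0-fold lower without a pseudocount. With the pseudocount of 1 its log2 ratio was -0.99, just inside 2-fold. Dnaja1 and Dnaja2, of general cytosolic co-chaperones, stood at 70.8 and 57.0 FPKM and at 59.1 and 48.3 FPKM. Dnajb6, of a suppressor of protein aggregation, stood at 68.9 and 51.0 FPKM (interval 0.614 to 0.888). Of its 50-base stretches, 42.8% recur in other transcripts. Dnajc5, of the cysteine string protein on secretory vesicles (34.2 and 35.2 FPKM), and Dnajc7, of a co-chaperone that binds HSP70 and HSP90 (34.1 and 35.0 FPKM), hardly differed. Just under that level, Dnajb4, an inducible relative of Dnajb1, was 1.90-fold lower at 26.2 and 13.8 FPKM (interval 0.401 to 0.687).

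The 6 DnaJ genes on the higher side of 2-fold all averaged under 10 FPKM. Dnajb12 (chromosome 10, 59879556 to 59899302) and Dnajb14, of related J proteins anchored in the ER membrane, stood at 3.94 and 15.3 FPKM and at 3.31 and 8.44 FPKM. Their ratios of 3.88 (interval 2.34 to 6.68) and 2.54 (interval 1.94 to 3.41) rest on about 19 and 98 reads and 67 and 229 reads. Dnajc24, of a factor in the diphthamide modification of elongation factor 2, stood at 1.84 and 8.81 FPKM from about 4 and 24 reads. Dnajc18 (2.85 and 8.53 FPKM), Dnajc27, of a RAB-like GTPase with a J domain (2.57 and 6.26 FPKM), and Dnajc5g, a relative of Dnajc5 (1.34 and 4.82 FPKM), were also higher. For these 6 genes the counting intervals lie above 1, but the genes were picked from the same values, so this adds no support. Of all genes averaging 5 to 20 FPKM, where 4 of the 6 lie, 10.3% were 2-fold higher, and of those averaging 1 to 5 FPKM, where the other two lie, 21.2% were.

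On the lower side of 2-fold were 5 DnaJ genes. Dnajc9, of a co-chaperone that also handles histones, stood at 22.7 and 9.17 FPKM, 2.48-fold lower (interval 0.274 to 0.598). Dnajc11, of a mitochondrial protein associated with the complex that shapes cristae, stood at 12.7 and 5.75 FPKM and lost its call on rescaling. Dnajb5 (4.49 and 0.646 FPKM), Dnajc16 (4.11 and 1.10 FPKM) and Dnajc5b (7.80 and 2.19 FPKM) were low in both libraries, at about 6 to 53 reads each. The intervals of all 5 lie below 1, but these genes too were picked from the same values, so this adds no support. Dnajb5 reached the minimum mean only through its control value. Of all genes, 11.2% of those averaging 5 to 20 FPKM, where Dnajc9 and Dnajc11 lie, and 10.9% of those averaging 1 to 5 FPKM were 2-fold lower.

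The other 14 measured DnaJ genes averaged 2.04 to 16.8 FPKM. Their log2 ratios ran from -0.50 (Dnajc12) to 0.71 (Dnajc6, of auxilin, which strips clathrin coats from vesicles), with 7 below and 7 above 0. Averages under 1 FPKM were those of Dnajc17 (1.37 and 0.341 FPKM), Dnajc28 (1.09 FPKM in the control, listed at 0 with ATPγS) and Dnajb3, listed at 0 in both. Exons of neighbouring genes on the opposite strand cover 44.1% of the exon bases of Dnaja4, 37.2% of Dnajb8 and 26.2% of Dnajc30, and without strand their reads cannot be told apart.

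**Figure D3:**
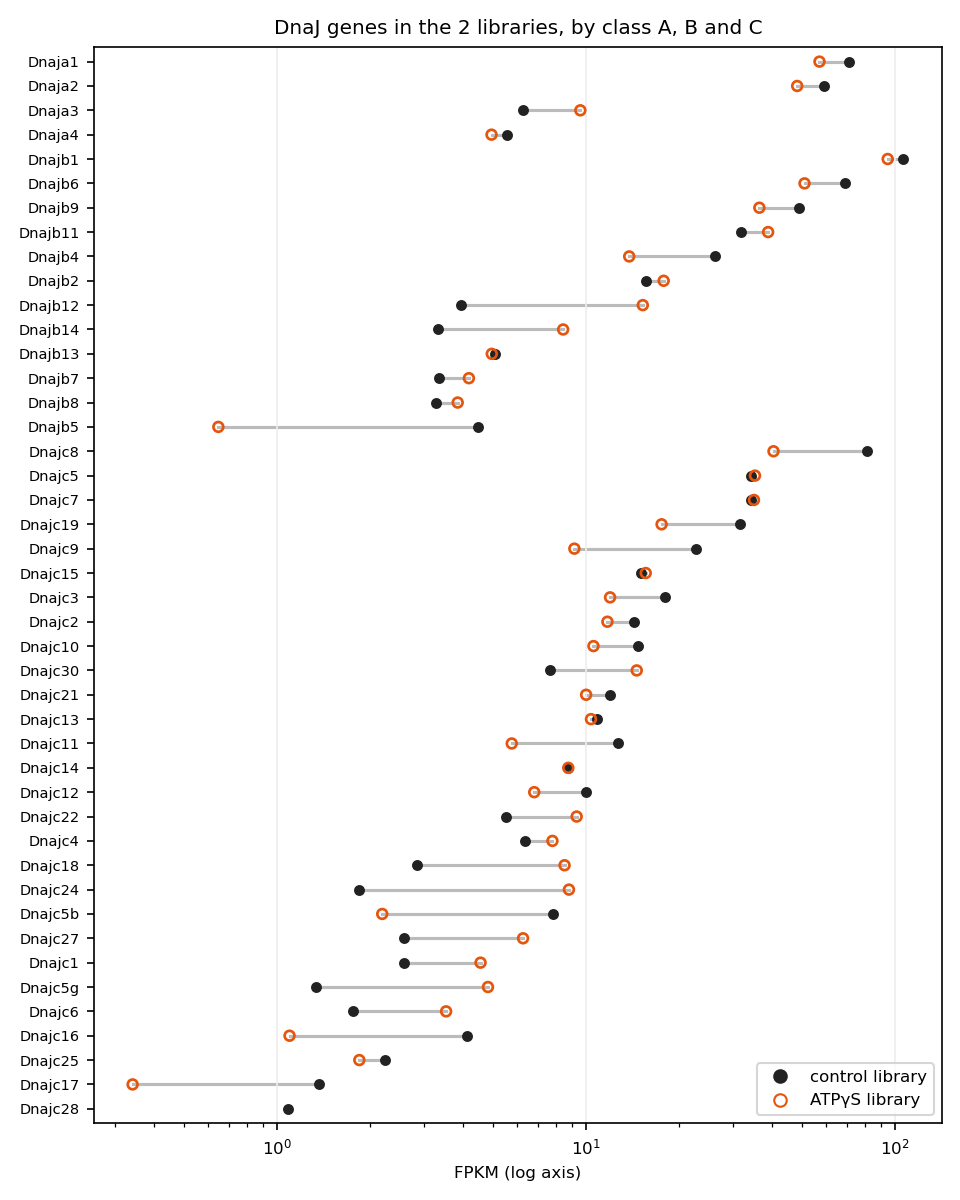
FPKM (log axis) of each DnaJ gene, with the control library as filled points and the ATPγS library as open circles, ordered by class A, B and C and by mean level within a class. Dnajb3, listed at 0 in both libraries, is not drawn, and Dnajc28 has no open circle because it was listed at 0 with ATPγS. Wide gaps lie mostly under 20 FPKM, with open circles to the right for Dnajb12, Dnajc18 and Dnajc24 and to the left for Dnajb5, Dnajc9 and Dnajc16.

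Inducible and constitutive paralogs were set side by side as pairs, and the pairs did not differ in a common direction. Hsp90aa1 stood at 0.494 of the level of Hsp90ab1 in the control and at 0.283 with ATPγS, a ratio of ratios of 0.574 (interval 0.513 to 0.643). For Hspa1a and Hspa1b summed against Hspa8 the ratios were 0.141 and 0.127 (ratio of ratios 0.902, interval 0.824 to 1.0). Taken singly, Hspa1a gave a ratio of ratios of 1.11 and Hspa1b 0.711. These single values can depend on how reads were divided between the copies, more than the sum does, which was not tested. Hsph1 against Hspa4 went the other way, from 0.738 to 1.02 (ratio of ratios 1.38, interval 1.07 to 1.77). Dnaja1 against Dnaja2 stood at 1.2 and 1.18 (interval of the ratio of ratios 0.824 to 1.18). Dnajb1 exceeded Dnajb5 by 23.7-fold and 147-fold, but that pair turns on about 32 and 6 reads of Dnajb5.

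**Figure D4:**
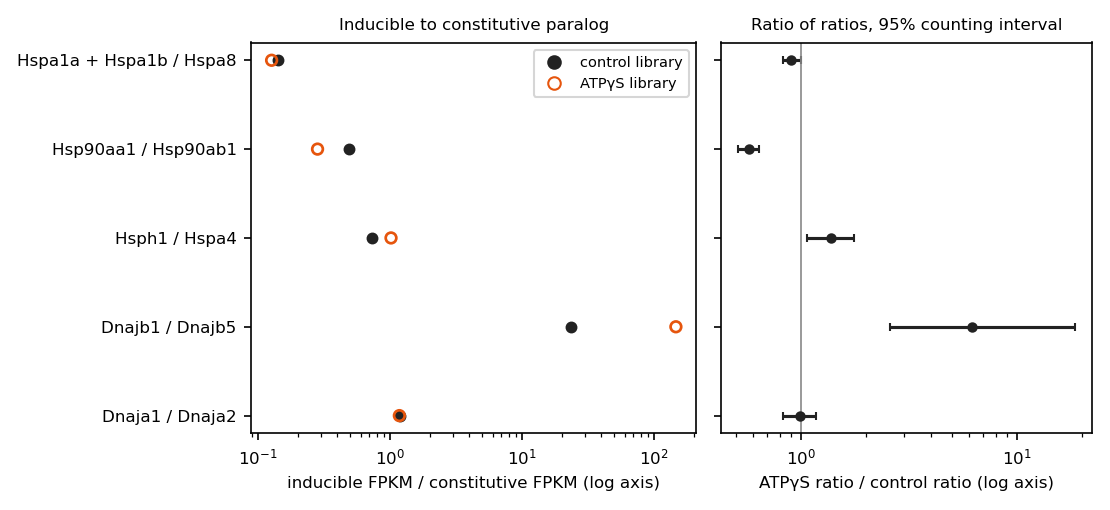
For 5 pairs, the left plot gives the FPKM of the inducible paralog divided by that of the constitutive paralog in the control (filled) and ATPγS (open) library on a log axis, and the right plot the ATPγS ratio divided by the control ratio with its 95% counting interval, where the vertical line marks no difference. Hsp90aa1 lies left of the line at 0.574, Hsph1 right of it at 1.38, and the interval of Dnajb1 and Dnajb5 is wide.

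The 8 genes of the inducible list (Hspa1a, Hspa1b, Hsp90aa1, Hsph1, Dnajb1, Dnajb4, Dnaja1 and Hspb1) summed to 616 and 476 FPKM. None was 2-fold apart, against 23.7% of all genes and 7.30% of those averaging 20 FPKM or more. Of the 8, 6 lay below 0 (49.6% of all genes did, and 60.7% of those averaging 20 FPKM or more). Their median log2 ratio was -0.39, or -0.26 after rescaling to a median of 0. The 6 genes of the constitutive list (Hspa8, Hsp90ab1, Hspa4, Dnajb5, Dnaja2 and Hspa2) summed to 1458 and 1389 FPKM. Their median was -0.17, or -0.04 after the same rescaling. Dnajb5 was the 1 member 2-fold lower, as were 9.91% of all genes. Whether the lists differ could not be tested with 1 library per condition.

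The ER chaperone genes lay on both sides of 0, with 6 of 11 below it, near the 49.6% of all genes. Beside Hspa5, Hsp90b1 and Hspa13, given above, Dnajb11, a BiP partner that binds nascent proteins, stood at 31.8 and 38.9 FPKM (interval 0.983 to 1.54). Dnajb9, of a BiP partner that restrains the stress sensor IRE1, stood at 49.1 and 36.4 FPKM (interval 0.622 to 0.885). Dnajc3, of an inhibitor of the kinase PERK, stood at 18.03 and 11.97 FPKM (interval 0.537 to 0.814), and Dnajc10, of a disulfide reductase, at 14.8 and 10.6 FPKM (interval 0.552 to 0.921). Of the genes of J proteins in the ER membrane, Dnajb12, Dnajb14 and Dnajc1 (2.59 and 4.56 FPKM) were higher and Dnajc16 was lower. Over the 11 genes of the ER list 2 were 2-fold higher and 1 was 2-fold lower, near the 13.8% and 9.91% of all genes. The median of the list, -0.12, became 0.01 after rescaling.

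Of the 8 genes of mitochondrial chaperones, 1 (Dnajc11) was 2-fold lower and 5 lay below 0, both near the shares of all genes (9.91% and 49.6%). Their median was -0.24, or -0.11 after rescaling to a median of 0. Hspd1, Hspe1 and Hspa9 are given above. Dnajc19 and Dnajc15, of related J proteins of the import motor at the inner membrane, went apart: Dnajc19 was 1.80-fold lower at 31.5 and 17.6 FPKM (interval 0.387 to 0.782), and Dnajc15 stood at 15.0 and 15.6 FPKM. Dnajc30 (7.65 and 14.6 FPKM, interval 1.21 to 3.10) and Dnaja3, of the mitochondrial partner of HSPA9 (6.25 and 9.59 FPKM, interval 1.02 to 2.42), were higher.

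**Figure D5:**
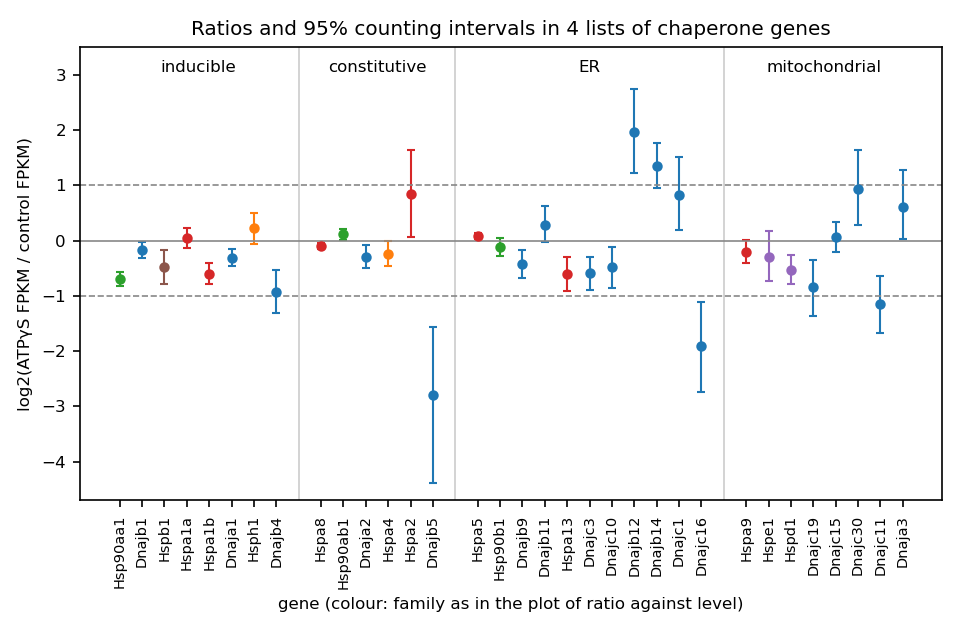
Log2 of the ATPγS to control ratio of FPKM, without pseudocount, for each gene of the inducible, constitutive, ER and mitochondrial lists, ordered by level within a list, with 95% counting intervals as bars and dashed lines at 2-fold. Of the inducible genes, Hsp90aa1, Hspa1b and Dnajb4 lie clearly below 0, and of the ER genes Dnajb12 and Dnajb14 lie highest.

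Most regulators and co-chaperones that the symbol rule does not match lay within 2-fold. Of 54 such genes 52 averaged 1 FPKM or more. Of these, 1 was 2-fold higher and 4 were 2-fold lower, against 13.8% and 9.91% of all genes. Those backgrounds are not matched for level. All listed genes past 2-fold averaged under 20 FPKM, while 28 of the 52 averaged 20 FPKM or more. At that level 2.3% of all genes were 2-fold higher and 5.0% lower. Below it, 10.9% (1 to 5 FPKM) and 11.2% (5 to 20 FPKM) of all genes were 2-fold lower. Of the 52, 40 lay below 0 and the median was -0.25, or -0.13 after rescaling to a median of 0. Of all genes, 49.6% lay below 0. Of the 28 listed genes averaging 20 FPKM or more, 25 lay below 0, against 60.7% of all genes at that level. Trap1, of the mitochondrial HSP90, was the higher one (4.69 and 10.8 FPKM). The lower ones were Bag5 (22.2 and 9.16 FPKM) and Bag2 (2.03 and 0.169 FPKM from about 8 and 1 reads), of HSP70 nucleotide exchange factors, Ahsa2, of a relative of the HSP90 activator AHA1 (11.3 and 4.97 FPKM), and Cryab, of a small HSP (17.6 and 6.58 FPKM). All 8 genes of the cytosolic chaperonin CCT lay below 0, with log2 ratios of -0.84 to -0.22 and a median of -0.36. The ratio furthest from 0 was that of Cct5 (138 and 76.6 FPKM), and Cct3 (113 and 87.5 FPKM) and Cct8 (96.0 and 81.7 FPKM) followed in level. All 8 lay below the median of -0.13 over all genes averaging 10 FPKM or more, and whether this sets them apart was not tested. None lay as low as the 5% quantile of -1.0 of all genes averaging 20 FPKM or more. The intervals of Tcp1 (0.693 to 1.03) and Cct2 (0.712 to 1.03) include no difference, and those of the rest lie below 1. The ER chaperone genes Calr (139 and 106 FPKM), Pdia3 (130.1 and 106 FPKM) and Pdia6 (101 and 106 FPKM) were the most abundant of the rest.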

How the data were processed

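Gene expression was measured in 2 libraries, 1 per condition. Per the labels' protocols, the SMART-Seq HT kit gave the cDNA and a Nextera kit the libraries, without strand marking. Per the submitters' processing notes, Cufflinks 2.2.1, TopHat2 2.0.13, SAMtools 0.1.19 and Bowtie2 2.2.3 were used with mm10, and no annotation or rule for reads with several matches is stated there. The deposited values are FPKM computed by the authors, 1 per gene symbol.

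The depth was read from the spacing of low values (FPKM times coding length) over olfactory receptor genes. It was the depth, of those tried, at which these values came closest to whole reads. At that depth 70.4% and 70.2% of values under 10 reads came out whole within 0.05 reads. Chance would give 10% at a depth set beforehand, so these shares are no separate check of the depth. Reads per gene were then estimated from GENCODE M21 lengths (23310 of 24346 symbols) and are approximate. Ratios have 95% exact binomial (Clopper-Pearson) intervals, and ratios of ratios exact conditional ones. Intervals cover counting error only, and can be too narrow even for that, since reads are not independent molecules. Reads estimated from the lengths summed to 110% (control) and 108% (ATPγS) of the depths. The pseudocount was 1, the minimum mean FPKM 1 and the threshold 2-fold, while folds in the text carry no pseudocount. Sequence sharing was counted as 50-base stretches found in transcripts of other genes. Python 3.11.15, numpy 2.4.6, pandas 2.3.3 and scipy 1.17.1 were used. The log2 ratios, calls and intervals were run on simulated counts with counting error only. Changes of 3-fold were placed only in genes averaging 20 FPKM or more. The depths and lengths were taken as given, so the depth reading, shared reads and changes in lower genes were not tested.

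The members and lists were chosen with earlier results of these data known. Genes named were every HSP gene outside DnaJ, DnaJ genes averaging 20 FPKM or more or 2-fold apart, all members of the 4 lists, and of the other co-chaperones those 2-fold apart or among the 6 most abundant. Alternatives were pseudocounts of 0.1 and 5, 2 rescalings, no or higher minimum levels, 1.5-fold and 3-fold thresholds, and other family assignments.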

Additional observations from a re-analysis of the deposited data

How the results depend on the processing

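Of 220 values for 55 named genes under other pseudocounts and rescalings, 214 moved by less than their counting error and 6 (Hspa5, Hspa8, Hsp90ab1 and Dnajb14) moved by more. These counts say little about how firm the values are. Rescaling shifted log2 ratios by similar amounts, so only genes with many reads and narrow intervals (Hspa5, Hspa8 and Hsp90ab1) passed that limit. Genes without a finite interval, such as Hspa1l, could only be counted as moving less. That 0 of the 13 genes past 2-fold changed sign was fixed in advance. A pseudocount keeps the sign, and the rescalings shifted log2 ratios by only about 0.05 and 0.13. Hspa8 and Hsp90b1 changed sign on rescaling to a median of 0. So did the medians of the chaperone genes together, the DnaJ genes, the HSP90 genes and the ER list. The count of genes at least 2-fold higher (6) became 2 with a pseudocount of 5, 0 above an average of 20 FPKM, 11 at 1.5-fold and 2 at 3-fold. The count at least 2-fold lower (7) became 1 with a pseudocount of 5, 4 above an average of 5 FPKM, 1 above an average of 20 FPKM, 12 at 1.5-fold and 1 at 3-fold. With a pseudocount of 0.1 it was 8, Dnajc8 being added. Under either rescaling the count lower was 5, without Hspa14 and Dnajc11. Of the other co-chaperones, 1 was 2-fold higher, and 2 with a pseudocount of 0.1, after rescaling to a median of 0 or at 1.5-fold, and 0 with a pseudocount of 5, above an average of 20 FPKM or at 3-fold. Their count lower (4) became 0 with a pseudocount of 5, above an average of 20 FPKM or at 3-fold, and 10 at 1.5-fold. Against Hspa8, the log2 ratio of ratios of -0.15 for Hspa1a and Hspa1b summed was 0.15 for Hspa1a alone and -0.49 for Hspa1b alone. With no minimum level the small HSP median of -0.44 became 0.26, through genes under 1 FPKM. The cause of the other shifts was not tested. No paired analysis was possible because each condition has 1 library. At these depths the values of low genes such as Dnajc24 rest on as few as 4 reads.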
